A study of Arabidopsis thaliana with 75 samples.

Results

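The genes described are the 10 enzymes of the monolignol branch in Arabidopsis thaliana, chosen by gene ID out of 32833 genes in the deposited count table: HCT (AT5G48930), C3H1 (AT2G40890), CSE (AT1G52760), CCoAOMT1 (AT4G34050), CCR1 (AT1G15950), CCR2 (AT1G80820), F5H1 (AT4G36220), COMT1 (AT5G54160), CAD4 (AT3G19450) and CAD5 (AT4G34230). All 10 passed the filter on low counts, among 23475 genes tested. Messenger RNA was sequenced from the eighth leaf of 4-week-old plants cut with a blade, in 75 libraries that form 25 groups of 3. Wild type (labelled WT) has 12 time groups, namely 0h, 1h, 2h, 4h, 6h, 12h, 18h (hours), then 1D, 2D, 3D, 4D, 5D (days). A line labelled gpat4 gpat8, named for 2 acyltransferase genes of the cutin pathway, has the 7 groups 0h, 2h, 4h, 12h, then 1D, 2D, 3D. A line labelled rbohE, named for an NADPH oxidase gene, has the 6 groups 0h, 2h, 4h, then 1D, 3D, 5D. The treatment label was wound in every library, 0h included, and no intact leaves of the later times were analysed here, so the hours since the cut and the hour of the day cannot be told apart. The labels name no allele, and do not say whether the numbered replicates came from separate plants, so the p-values measure only the spread between these libraries.

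Monolignols are the alcohols that plants polymerise into lignin, the phenolic polymer that stiffens and waterproofs the cell wall, and related phenolics are built into suberin at wounds. The branch begins with p-coumaroyl-CoA. HCT joins it to shikimate, C3H1 (a cytochrome P450) hydroxylates the ester to caffeoyl shikimate, and CSE hydrolyses that ester to caffeate. CCoAOMT1 methylates caffeoyl-CoA to feruloyl-CoA, CCR1 and CCR2 reduce such CoA esters to aldehydes, F5H1 (a cytochrome P450) and COMT1 add the hydroxyl and methyl groups that set syringyl units apart from guaiacyl units, and CAD4 and CAD5 reduce the aldehydes to the alcohols that leave the cell.

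The summed counts of a library lay between 46045188 and 67376782 (median 61143105), and a member had between 3 and 145105 counts in a library with a median of 9698. Levels are CPM, the counts of a gene scaled to a common library total by TMM, and a gene is called changed when its adjusted p is under 0.05 and its absolute log2 fold change is at least 1. In the descriptions of 9 gpat4 gpat8 libraries, those of 0h, 12h and 1D, stands an M whose meaning is not stated. Plastid-encoded genes took 0.943% to 2.57% of their counts, against 0.212% to 0.793% in the other libraries of that label and 0.250% to 0.577% in wild type. GPAT4 was lower than in wild type in the libraries labelled gpat4 gpat8, with 84.4 ± 4.9 against 252 ± 9.0 CPM at 2h (SD, n = 3). GPAT8 went against that label, with 13.9 ± 3.9 CPM at 2D against 2.62 ± 0.68 in wild type. RBOHE stood at 2.73 ± 0.13 CPM in the libraries labelled rbohE at 3D against 45.7 ± 3.7 in wild type, and was under 1 CPM in both at 0h. Since GPAT8 goes against its label, the 2 lines are called by their labels throughout. Photosynthetic transcripts of leaf mesophyll were present in every group, with a summed level of 5 markers from 1228 to 11085 CPM, while 2 or 3 of 3 seed storage markers were at 0 in 22 of the 25 groups.

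The sequences just upstream of the genes were compared first, because lignin genes are known for AC elements, short A- and C-rich motifs that MYB factors bind in their promoters. In the 250 bases before the annotated start (RefSeq, assembly TAIR10.1, both strands searched), the AC-II element ACCAACC stood in 4 of the 10 genes, against 2.69% of 27443 promoters of the same length. The AC-I element ACCTACC stood in 1 of 10 (1.16% of all), AC-III ACCTAAC in 0 of 10 (2.46%), the G-box CACGTG in 0 of 10 (6.49%) and the W-box core TTGAC in 5 of 10 (44.9%). An AC element of any of the 3 kinds was in 5 of 10 against 6.12% of all promoters. A match describes letters and not a bound site. The AC-II matches are shown with 10 flanking bases on each side where the window allows, the element in capitals, 5′ to 3′ on the strand of the gene.
HCT at chr5:19838309-19838335, minus strand: gaacgggtttACCAACCccggatagaa
C3H1 at chr2:17060658-17060684, minus strand: aaatcggttcACCAACCccctccctaa
CCR1 at chr1:5478579-5478602, plus strand: ttcttcttccACCAACCcctcttt
CAD5 at chr4:16389162-16389188, minus strand: ttgtttgttcACCAACCcccgtggacc
In all 4 the element was followed by CC, and the longer ACCAACCCC occurred in 32 of 27443 promoters (0.117%). The longer word was chosen after the flanks were seen. In wild type CAD5, HCT and CCR1 had their highest group mean at 2h, and C3H1 had its highest at 3D, which overlapped 2D.

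The full windows of 3 genes are given because they represent the courses described below: CAD5 for the early peak, CCR2 for the increase from near 0 and CCoAOMT1 for the late rise. Capitals mark AC elements and TTGAC cores on either strand (GTCAA on the strand shown).
CAD5 promoter, chr4:16388941-16389190, minus strand: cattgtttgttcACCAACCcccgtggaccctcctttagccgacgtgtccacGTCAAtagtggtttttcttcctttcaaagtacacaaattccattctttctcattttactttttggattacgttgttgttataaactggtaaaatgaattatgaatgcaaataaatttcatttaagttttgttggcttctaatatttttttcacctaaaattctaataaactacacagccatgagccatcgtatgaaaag
CCR2 promoter, chr1:30370224-30370473, plus strand: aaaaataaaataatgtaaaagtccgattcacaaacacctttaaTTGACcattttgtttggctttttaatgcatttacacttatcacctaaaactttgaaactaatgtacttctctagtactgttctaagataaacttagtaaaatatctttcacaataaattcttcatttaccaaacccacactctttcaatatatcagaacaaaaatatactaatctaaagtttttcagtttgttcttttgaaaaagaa
CCoAOMT1 promoter, chr4:16310159-16310408, plus strand: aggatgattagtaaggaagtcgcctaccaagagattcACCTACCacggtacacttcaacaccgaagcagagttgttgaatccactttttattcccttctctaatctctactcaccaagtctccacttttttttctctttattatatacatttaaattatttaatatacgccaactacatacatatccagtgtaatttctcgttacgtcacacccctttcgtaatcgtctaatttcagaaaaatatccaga
CAD5 held AC-II 238 bases and a TTGAC core 199 bases before the gene start, CCR2 held a TTGAC core at 207 bases and no AC element, and CCoAOMT1 held AC-I at 213 bases and no TTGAC core.

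In wild type the members differed in when they changed. CAD5, CCR2 and HCT rose within 1h and CAD5 and HCT peaked at 2h, whereas CCoAOMT1, COMT1 and CSE were highest at 3D. CAD4 fell at 1h and 4h, and CCR1 and F5H1 were not called higher at any time. At 1h 3 members were called higher (background 16.3% of all genes tested called higher), and so were 3 by 2h (18.2%) and 2 by 4h (13.9%). The 6h, 12h, 18h and 1D groups had 3 each (9.83%, 9.68%, 8.41% and 9.38%). Then 6 members were called in the 2D group (10.7%), 7 in the 3D group (10.6%), 6 in the 4D group (9.43%) and 4 in the 5D group (9.69%). Members called lower numbered 3 at 1h (background 17.2%) and 1 at 4h (13.1%). The counts called higher up to 4h, at 3, 3 and 2 of 10, are not far from these backgrounds. In either direction DESeq2 called 4 members instead of 6 at 1h, 5 instead of 3 at 2h, 7 instead of 6 at 2D and 6 instead of 4 at 5D. At 2h CCR1 went from 0.99 to 1.11 and C3H1 from 0.90 to 1.02, and at 2D C3H1 went from 0.99 to 1.06. The share of all genes called by DESeq2 is not given here. The median log2 fold change of the 10 genes was 1.49 at 3D, against -0.03 over all genes, and -0.24 at 1h, against -0.10.

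**Figure D1:**
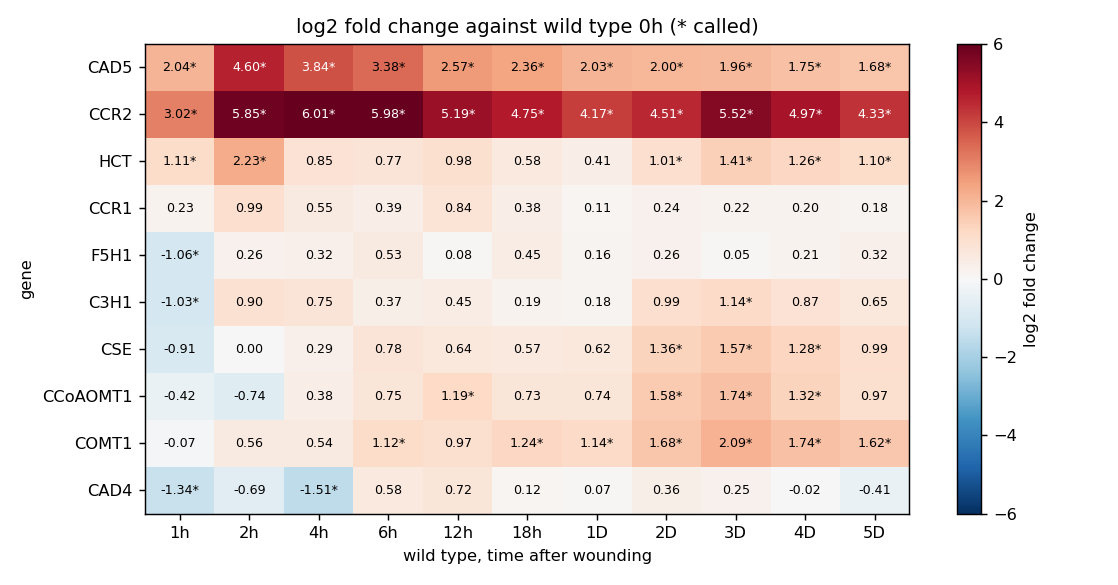
Fitted log2 fold change of each member (rows) against wild type 0h at 11 times (columns, evenly spaced), with a star where the change was called. CAD5 and CCR2 are starred in every column, and the stars of CSE and CCoAOMT1 gather at 2D to 4D.

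HCT, which starts the shikimate ester route, stood at 137, 107 and 106 CPM in the wild type libraries at 0h and at 529, 588 and 525 CPM at 2h. The groups did not overlap. The log2 fold change was 2.23 ± 0.11 (SE, adjusted p = 1.04e-24), and HCT was called higher at 6 of 11 times. Of these the call at 2D, 1.01, was 0.95 without wild type 0h replicate 2 or replicate 3 and 0.99 without wild type 2D replicate 1. After 2h it fell by 1.38 on the log2 scale to 4h (adjusted p = 3.41e-16) and came back to 290, 296 and 343 CPM at 3D, a log2 fold change of 1.41 ± 0.11 against 0h.

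C3H1, the next enzyme, dipped before it rose. It stood at 43.1, 40.2 and 39.4 CPM at 0h, 18.1, 19.2 and 22.6 at 1h and 58.2, 97.1 and 73.4 at 2h. The 1h libraries lay below and the 2h libraries above all 0h libraries. The step from 1h to 2h was called, at 1.93 ± 0.12 on the log2 scale (adjusted p = 6.17e-20), and so was the rise from 0h to 3D at 1.14 ± 0.12 (adjusted p = 8.84e-12). The fall at 1h was called at -1.03 ± 0.12, but it was -0.87 with RLE size factors, -0.97 without wild type 1h replicate 1 and -0.99 without wild type 0h replicate 1, each of which ends the call.

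CSE, whose reaction completes the caffeoyl step, fell early and was called higher only late. At 1h it had its lowest wild type level, 24.8 ± 1.4 CPM (SD), below every 0h library, a fall that was not called. Its levels were 49.8, 49.3 and 40.8 CPM at 0h, 40.0, 53.7 and 45.9 at 2h and 128, 132 and 156 at 3D. The 2h libraries overlapped those at 0h, and every 3D library was above both. The change at 3D was 1.57 ± 0.13 on the log2 scale (adjusted p = 6.51e-15), and CSE was called at 2D, 3D and 4D.

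CCoAOMT1, the methyltransferase of caffeoyl-CoA, had 256, 239 and 194 CPM at 0h, 111, 178 and 122 at 2h and 753, 719 and 827 at 3D. The libraries at 2h lay below those at 0h, a difference of -0.74 ± 0.11 that did not reach the size threshold. Against 0h the change at 3D was 1.74 ± 0.12 (adjusted p = 5.41e-19). CCoAOMT1 was called higher at 4 of 11 times, namely 12h, 2D, 3D and 4D. Its level was 525 ± 20 CPM at 12h and 384 ± 21 at 1D (SD). From 2h to 4h it rose by 1.12 ± 0.11 (adjusted p = 1.35e-12), which was 0.99 without wild type 2h replicate 1.

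COMT1, the methyltransferase of the syringyl route, stood at 159, 133 and 103 CPM at 0h, 186, 232 and 163 at 2h and 548, 530 and 598 at 3D. It was called higher at 7 of 11 times, with its largest wild type change of 2.09 ± 0.12 at 3D (adjusted p = 5.02e-21). The calls at 6h and 1D, at 1.12 and 1.14, were 0.97 and 0.99 without wild type 0h replicate 3. F5H1, the hydroxylase of the same route, kept to a narrower range. Its wild type group means lay between 88.5 ± 6.3 CPM at 1h and 265 ± 17 at 6h, and those from 2h to 5D stayed between 191 and 265 CPM. The fall at 1h, from 181, 188 and 183 to 81.3, 92.7 and 91.4 CPM, was called at -1.06 ± 0.12, and was -0.89 with RLE size factors, which ends the call.

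**Figure D2:**
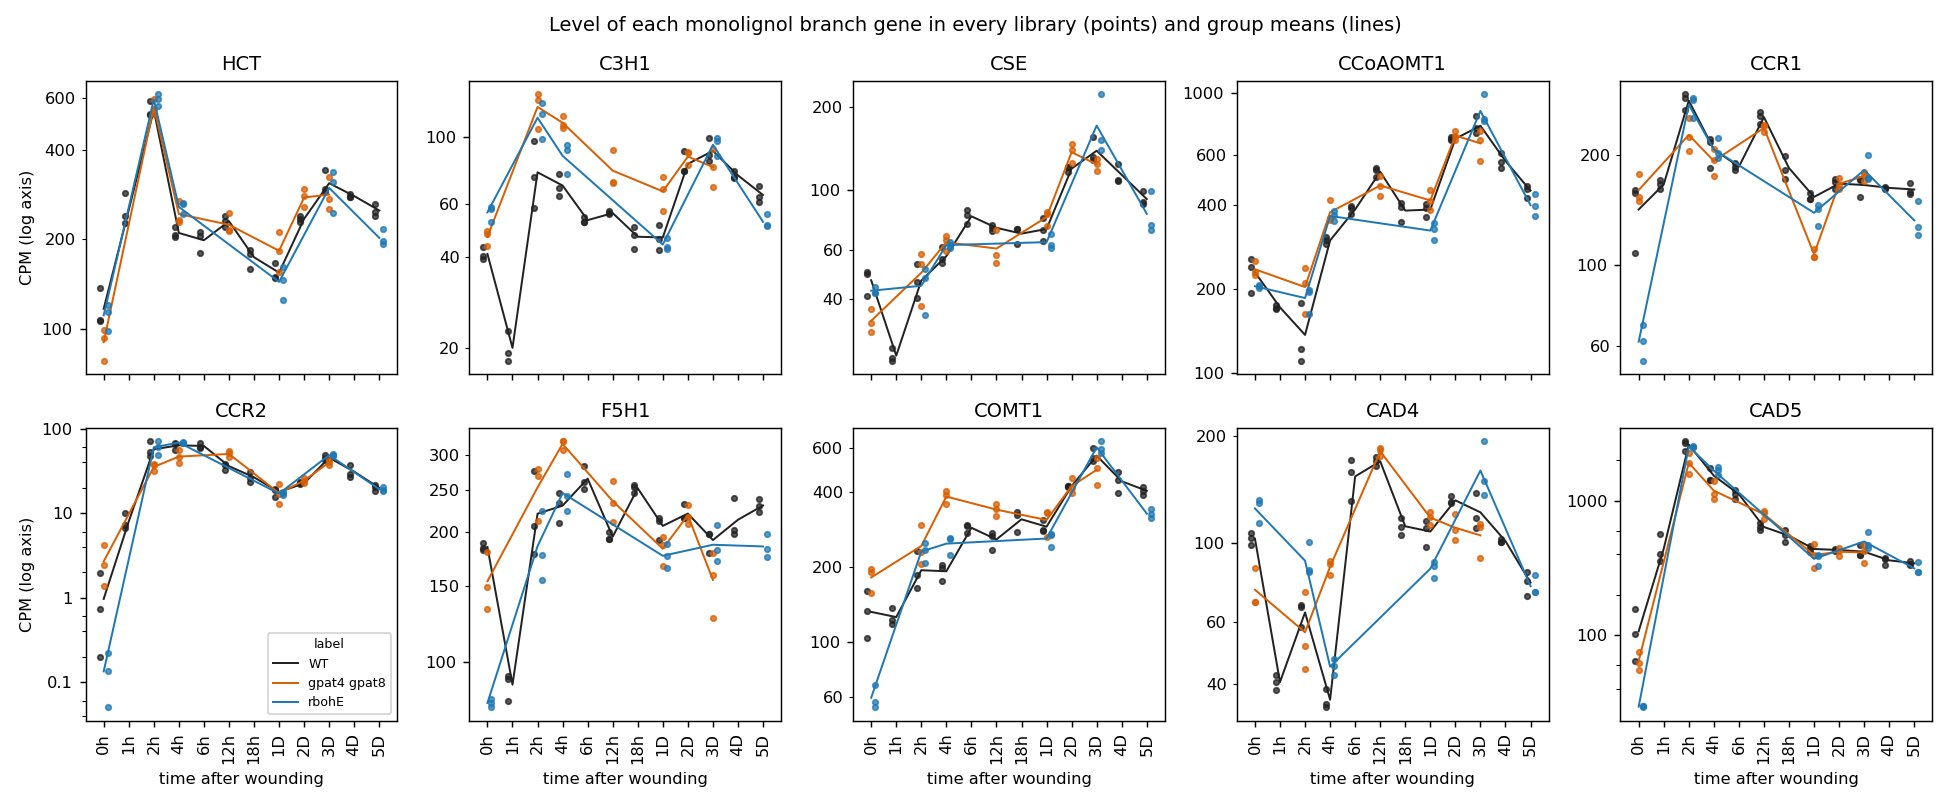
CPM of each member in every library (points, log axis) and group means (lines) against time after wounding (evenly spaced steps) for WT (black), gpat4 gpat8 (orange) and rbohE (blue). CAD5 and HCT peak at 2h in all 3 labels, CCoAOMT1 and COMT1 are highest at 2D or 3D, and the rbohE points of CCR1, CCR2, F5H1, COMT1 and CAD5 at 0h lie below most of the others.

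The reductases CCR1 and CCR2 differed widely in level and in response. CCR1, known as the enzyme of developmental lignification, had 157, 160 and 108 CPM at 0h and 286, 292 and 265 at 2h. These groups did not overlap, but the change of 0.99 ± 0.09 (adjusted p = 4.13e-14) stayed just under the size threshold, which it passed with RLE size factors or DESeq2 at 1.11, with no filter at 1.06 and with only the groups compared at 1.03. Without wild type 0h replicate 1, 0h replicate 2 or 2h replicate 3 it also passed, at 1.07, 1.08 and 1.03. CCR2, known for induction by pathogens, had 0.733, 0.197 and 1.96 CPM at 0h (48, 10 and 119 counts by library) and 68.1, 65.8 and 56.2 CPM at 4h. The libraries at 0h were spread widely, and all lay far below those at 4h. The log2 fold change at 4h was 6.01 ± 0.32 (adjusted p = 3.99e-23), and CCR2 was called higher at all 11 times, with a second maximum of 45.2 ± 2.9 CPM at 3D after 17.7 ± 1.9 at 1D.

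CAD4 and CAD5, the dehydrogenases of the last step, went opposite ways in the first hours. CAD5 had 156, 102 and 64.5 CPM at 0h and 2686, 2784 and 2357 at 2h, the highest group mean of any member. The change was 4.60 ± 0.19 on the log2 scale (adjusted p = 2.22e-28), and at 5D the 3 libraries, at 335, 357 and 338 CPM, were still above every 0h library. CAD4 had 98.5, 103 and 107 CPM at 0h, 42.5, 40.6 and 38.4 at 1h and 34.4, 38.8 and 35.2 at 4h. Both later groups lay below 0h, at -1.34 ± 0.12 (adjusted p = 2.31e-15) and -1.51 ± 0.12 (adjusted p = 5.48e-17). From 4h to 6h CAD4 rose by 2.09 ± 0.12 (adjusted p = 3.34e-20) to 159, 131 and 172 CPM, and the 12h libraries overlapped those at 6h.

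The order of the wild type levels by group mean placed CAD5 at 2h, 4h, 6h and then 12h, and neighbours from 12h to 3D overlapped. For CCR2 the 4h, 6h, 2h and 3D groups came first and overlapped with their neighbours in that order. CCoAOMT1 and CSE had 3D first and without overlap, followed by 2D and 4D. COMT1 had 3D first without overlap, followed by 4D, 2D and 5D, of which each overlapped the next.

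The shares of the paired enzymes also changed in size, while per kilobase in wild type CCR1 and CAD5 held the larger share by group mean in all 12 groups. Per kilobase of the longest transcript, CCR2 held 0.551% ± 0.61 of the CCR1 plus CCR2 level in wild type at 0h (SD, n = 3), 17.5% ± 0.13 at 4h, 7.43% ± 0.67 at 1D and 16.0% ± 0.39 at 3D. CAD4 held 47.7% ± 12 of the CAD4 plus CAD5 level at 0h, 2.13% ± 0.027 at 2h and 20.6% ± 0.60 at 3D. The 0h libraries ran from 36.0% to 59.6%, and without length scaling the CAD4 share at 0h was 50.5% ± 12. At 0h CAD4 and CAD5 were thus close to equal in wild type, at 56.7 and 66.5 CPM per kilobase, and at 2h they stood at 35.1 and 1616 CPM per kilobase. Under rbohE CAD4 held the larger share at 0h, at 79.0% ± 1.4, and under gpat4 gpat8 its share was 50.5% ± 5.2. CAD4 and CAD5 transcripts are 76.6% identical over 59.4% of CAD4, and CCR2 and CCR1 are 79.6% identical over 38.3% of CCR2, so that reads in those stretches may be split between the copies. CCR2 overlaps the opposite-strand gene NRAMP1 by 132 bases, whose mean count was 1981 at 0h, 1115 at 2h and 1759 at 4h while that of CCR2 went from 59.0 to 2822 and 4003. CCR1 shares 473 exon bases with NRAMP6 and 562 with AT1G05213, and C3H1 shares 70 with CYSA, all on the opposite strand. In wild type at 0h, 2h and 4h the mean counts of CCR1 were 8324, 13889 and 13069. Those of NRAMP6 were 1063, 1465 and 743, and those of AT1G05213 were 544, 1210 and 702. C3H1 had 2417, 3803 and 4350 at these times, and CYSA had 4903, 12810 and 8433. The libraries were stranded, but whether the counting used the strand is not given in the sources used here.

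**Figure D3:**
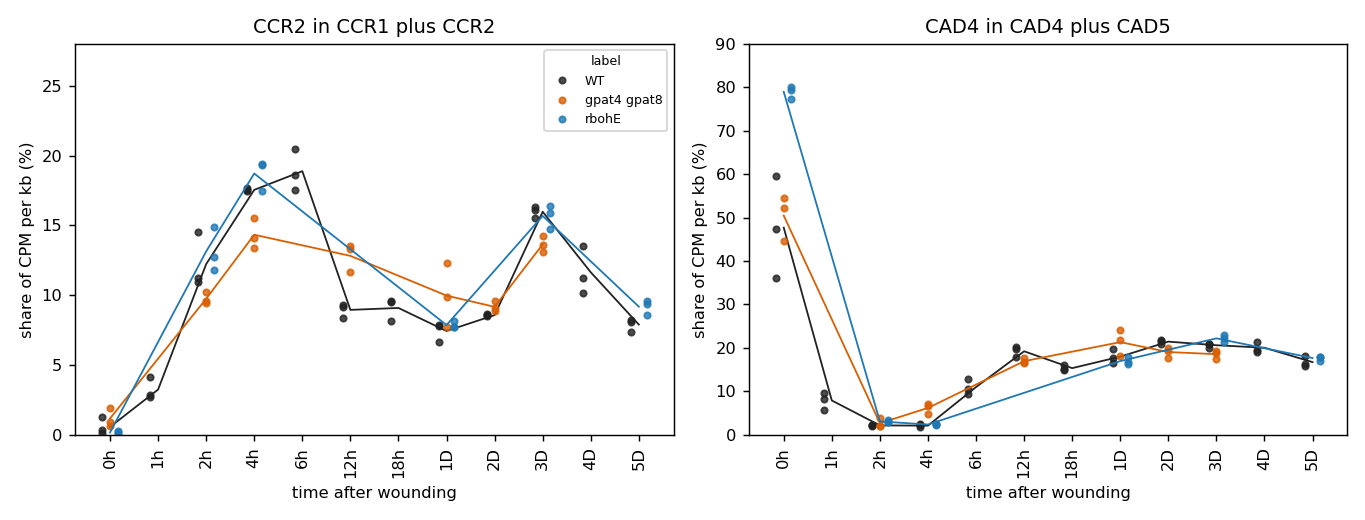
Share of CCR2 in CCR1 plus CCR2 (left) and of CAD4 in CAD4 plus CAD5 (right), in percent of CPM per kilobase, for every library (points) with group means (lines), against time after wounding (evenly spaced steps). In wild type CAD4 falls from 47.7% to 2.13% between 0h and 2h, and the CCR2 share has maxima at 6h and 3D. The CAD4 share at 0h is highest under rbohE, at 79.0%.

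Between neighbouring wild type times 9 of 100 steps were called. Over all genes and the same steps the share was 8.99%, so that the count is no result about the members. HCT, C3H1, CCR2, F5H1 and CAD5 rose from 1h to 2h (5 of 10, background 24.4%), HCT fell and CCoAOMT1 rose from 2h to 4h (22.8%), CAD4 rose from 4h to 6h (5.67%) and CCR2 rose from 2D to 3D (3.8%). The last step, 1.01 ± 0.24 (adjusted p = 2.10e-03), was 0.96 without wild type 3D replicate 3 and 0.99 without wild type 2D replicate 1, each of which ends its call.

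The contrast of 3D against 2h uses no M library and no 0h library. In wild type 4 of 10 members were called, the share of all genes called being 39.9%, so that the count is no result about the members. These were CCoAOMT1 at 2.48 ± 0.12, CSE at 1.58 ± 0.13 and COMT1 at 1.53 ± 0.12 higher and CAD5 at -2.64 ± 0.17. These 4 genes were also called, in the same directions, under gpat4 gpat8 (background 35.8%), at 1.71 ± 0.12, 1.32 ± 0.13, 1.02 ± 0.12 and -2.21 ± 0.17. They were called under rbohE too (background 41.0%), at 2.22 ± 0.12, 1.94 ± 0.14, 1.39 ± 0.12 and -2.34 ± 0.17. The COMT1 value under gpat4 gpat8 was 0.97 with RLE size factors, which ends that call, while HCT passed the size threshold with RLE size factors at -1.03 under gpat4 gpat8 and -1.08 under rbohE, from -0.98 and -0.99. CCR2 differed by -0.33 ± 0.24 in wild type, 0.18 ± 0.24 under gpat4 gpat8 and -0.31 ± 0.24 under rbohE, with adjusted p of 0.218, 0.518 and 0.247. The differences of these values from wild type were tested as interactions, and 0 of 20 were called by edgeR or by DESeq2 (background 4.63% for gpat4 gpat8 and 1.74% for rbohE). An adjusted p under 0.05 was reached by 5 of 10 and 1 of 10 members, and an unadjusted p under 0.05 by as many. Among all 23475 genes 3330 and 2197 reached the adjusted p. The most negative interactions of members were C3H1 at -0.90 ± 0.17 (adjusted p = 1.59e-04) and CCoAOMT1 at -0.78 ± 0.16 (adjusted p = 5.19e-04), both under gpat4 gpat8. Without wild type 2h replicate 2 they were -1.11 and -1.01, past the size threshold.

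At 0h the libraries labelled rbohE stood below wild type in part of the branch. Called lower were 5 of 10 members (background 6.27% called lower), namely CCR1, CCR2, F5H1, COMT1 and CAD5. CAD5 had 29.8, 29.7 and 29.2 CPM against 156, 102 and 64.5 in wild type, a log2 difference of -1.86 ± 0.17 (adjusted p = 5.59e-13), and the groups did not overlap. F5H1 had 80.4, 82.0 and 78.4 CPM against 181, 188 and 183 (-1.20 ± 0.12, adjusted p = 5.28e-12), again without overlap. CCR1 had 61.9, 54.7 and 68.4 CPM against 157, 160 and 108 (-1.20 ± 0.09, adjusted p = 2.36e-15). COMT1 had 57.0, 54.4 and 66.9 CPM against 159, 133 and 103 (-1.15 ± 0.12, adjusted p = 3.25e-11), and -0.99 without wild type 0h replicate 1. CCR2 had 14, 8 and 3 counts by library against 48, 10 and 119, groups that overlapped in CPM, with a fitted difference of -2.84 ± 0.46 (adjusted p = 1.63e-06) that rests on few counts. HCT, C3H1, CSE, CCoAOMT1 and CAD4 were not called, with log2 differences from -0.17 to 0.46.

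**Figure D4:**
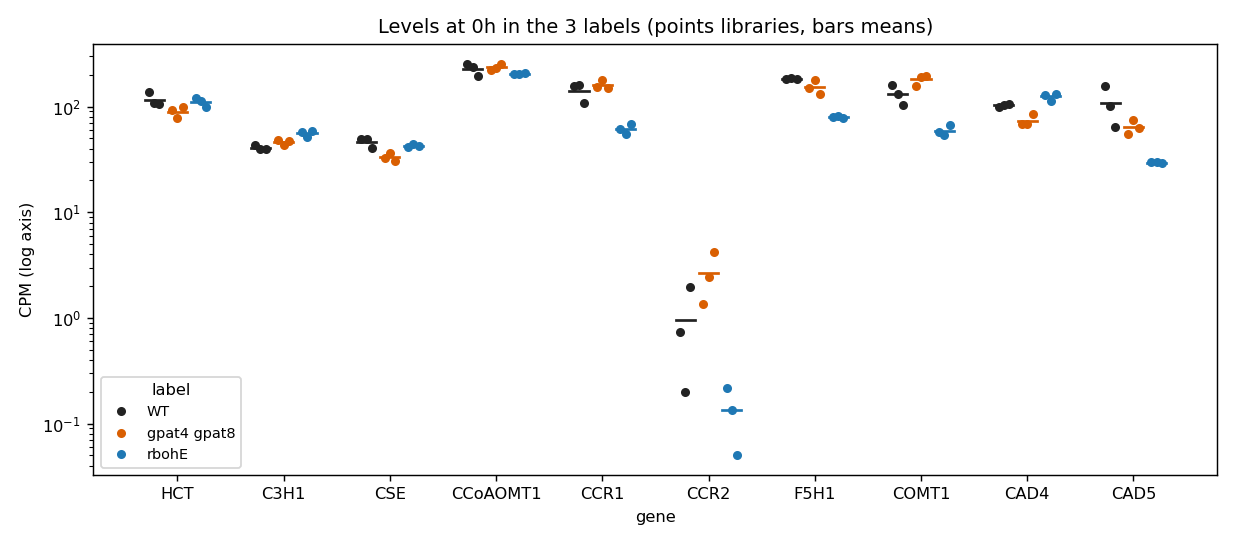
CPM of the members at 0h (log axis) in each library (points) and group mean (bars) for WT (black), gpat4 gpat8 (orange) and rbohE (blue). The rbohE libraries of CCR1, F5H1, COMT1 and CAD5 lie below every library of the other labels.

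At the later times the rbohE libraries were near wild type. In the 2h, 4h, 1D, 3D and 5D groups 0 of 10 members were called by edgeR and by DESeq2 (backgrounds 1.78%, 2.19%, 0.831%, 0.498% and 1.64%), with 5, 5, 2, 2 and 5 at an unadjusted p under 0.05. An adjusted p under 0.05 was reached by 3, 1, 0, 1 and 0 members at these times. Among all 23475 genes it was reached by 2246, 2181, 726, 1542 and 1497. CAD5 at 2h had 2527, 2530 and 2522 CPM under rbohE, within the wild type range of 2357 to 2784. The changes from 0h were therefore called different between the labels at 19 of 50 member and time pairs, all of them larger rises under rbohE (backgrounds 7.26%, 6.85%, 7.65%, 10.1% and 8.07% in order of time). For CAD5 the interaction was 1.81 ± 0.24 at 2h and 2.11 ± 0.24 at 3D (adjusted p = 7.38e-08 and 7.69e-10), and for CCR1 1.16 ± 0.13 at 2h and 1.34 ± 0.13 at 3D. These interactions and the difference at 0h share the 0h libraries and are not independent.

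Other values of the 0h libraries moved with the label too. The summed level of the 5 leaf mesophyll markers was 10550 to 11636 CPM under rbohE at 0h against 3571 to 5950 in wild type, and that of the 7 xylem markers, of which none was at 0, was 65.4 to 89.1 against 12.2 to 22.4. Under gpat4 gpat8 at 0h the leaf mesophyll sum was 10113 to 11648 CPM, a range that overlapped that of rbohE. The xylem sum there was 13.8 to 62.1 CPM. The clock gene CCA1 stood at 3.67 ± 0.99 CPM under rbohE, 10.2 ± 2.2 in wild type and 289 ± 39 under gpat4 gpat8 at 0h. Their part in the differences at 0h was not tested. In these whole leaves, fewer cells of a type and less RNA per cell cannot be told apart.

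Under gpat4 gpat8, 2 of 70 member and time pairs were called different from wild type. An adjusted p under 0.05 alone was reached by 21 of 70. Of these 6 were at 0h and 5 at 4h, where 12683 and 12302 of 23475 genes reached it. CCR2 at 0h (background 20.5%) had 1.36, 2.42 and 4.23 CPM against 0.733, 0.197 and 1.96, groups that overlapped, with a log2 difference of 1.45 ± 0.31 (adjusted p = 6.67e-05). It was 0.96 without gpat4 gpat8 0h replicate 3, and the adjusted p was 0.166 in a fit of only the groups compared. CAD4 at 4h (background 19.2%) had 81.1, 88.7 and 87.3 CPM against 34.4, 38.8 and 35.2 in wild type, without overlap, a difference of 1.25 ± 0.12 (adjusted p = 1.06e-13). COMT1 at 4h had 402, 358 and 388 CPM against 203, 197 and 175, also without overlap, at 1.00 ± 0.12 (adjusted p = 3.62e-10) and just short of the size threshold before rounding. In the 2h, 12h, 1D, 2D and 3D groups 0 of 10 members were called by edgeR or DESeq2 (backgrounds 6.85%, 12.7%, 11.4%, 2.07% and 3.16%), with 6, 3, 3, 2 and 1 at an unadjusted p under 0.05. An adjusted p under 0.05 was reached by 6, 2, 2, 0 and 0 members at these times. Among all 23475 genes it was reached by 7069, 9558, 10101, 1225 and 3026.

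The change of CAD4 from 0h to 4h was -1.51 in wild type and 0.22 under gpat4 gpat8, an interaction of 1.73 ± 0.16 (adjusted p = 3.37e-13; background 22.4% at 4h), and -1.48 under rbohE. CCA1 stood at 19.1 ± 0.81 CPM under gpat4 gpat8 at 4h against 6.42 ± 0.72 in wild type, the leaf mesophyll markers summed to 10402 to 11549 against 1141 to 1346 CPM, and their part in this difference was not tested. CCR2 rose less from its own 0h under gpat4 gpat8, with called interactions from -2.15 to -1.35 at 2h, 4h, 1D, 2D and 3D (backgrounds 17.9%, 22.4%, 16.5%, 19.4% and 16.3%). All 5 rest on the low and scattered 0h counts and on M libraries at 0h, and none was called in a fit of only the groups compared (adjusted p from 0.0574 to 0.189). For CAD5 the interaction at 12h was 1.05 ± 0.23 (background 12.5%), 0.68 without wild type 0h replicate 1 and 0.95 without gpat4 gpat8 0h replicate 1.

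The changes of each line from its own 0h are given next. Under gpat4 gpat8 they cross the library series, since the 0h, 12h and 1D libraries carry the M and the others do not, and the part of that difference was not tested. Against their own 0h, CAD5 and CCR2 were called higher at all 6 times under gpat4 gpat8 and at all 5 times under rbohE. CAD5 rose by 4.88 at 2h under gpat4 gpat8 and by 6.42 under rbohE, on the log2 scale. HCT was called at all 6 times under gpat4 gpat8 and at 3 of 5 under rbohE, with 2.64 and 2.42 at 2h. Its gpat4 gpat8 call at 1D, 1.03, was 0.98 with RLE size factors, 0.96 with only the groups compared, 0.93 without 0h replicate 2 and 0.91 without 1D replicate 1 of that line. CCR1, F5H1 and COMT1 were each called higher at 5 of 5 times under rbohE, where their 0h level was low, and at 0, 1 and 3 of 6 times under gpat4 gpat8. In total 30 of 60 member and time pairs were called under gpat4 gpat8, with 4 members by 2h (background 36.1%), 6 by 4h (28.8%), 4 by 12h (16.5%), 4 by 1D (20.3%), 6 by 2D (27.9%) and 6 by 3D (24.7%). Under rbohE 32 of 50 were called, with 7 members by 2h (45.3%), 7 by 4h (37.1%), 5 by 1D (24.5%), 8 by 3D (25.2%) and 5 by 5D (24.5%). For gpat4 gpat8 by 4h DESeq2 called 4 members instead of 6, since COMT1 went from 1.08 to 0.98 and F5H1 from 1.05 to 0.96. Both calls also ended without 1 library of gpat4 gpat8 at 0h, COMT1 at 0.99 without replicate 1 and F5H1 at 0.96 without replicate 3. CAD4 at 4h was the 1 pair called lower among them, under rbohE.

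The genes around the branch, from lists of the same pathway, moved as follows in wild type. Of all genes tested, 18.2% were called higher and 20% lower at 2h, 9.38% and 8.2% at 1D, and 10.6% and 7.34% at 3D. Of 9 entry enzymes (PAL, C4H and 4CL) 4 were higher and 2 lower at 2h, 1 and 2 at 1D, and 5 and 1 at 3D. PAL4, an ammonia-lyase that makes cinnamate, went from 1.12 ± 0.26 CPM at 0h to 81.2 ± 15 at 3D (log2 change 6.18 ± 0.25, adjusted p = 1.03e-27). 4CL3, a CoA ligase known for the flavonoid branch, fell from 94.3 ± 30 to 6.67 ± 2.0 CPM at 2h (-3.82 ± 0.36, adjusted p = 9.84e-14). The median log2 change of the entry list was 0.18 at 2h and 1.26 at 3D, against -0.01 and -0.03 over all genes.

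Of 14 tested relatives of the branch enzymes (15 listed), 4 were higher and 2 lower at 2h, and 2 and 3 at 3D, with median log2 changes of 0.25 and -0.19. Their 2 of 14 higher at 3D is near the share of all genes. CAD8, a relative of CAD4 and CAD5, rose from 27.0 ± 38 to 1418 ± 147 CPM at 2h (5.71 ± 0.63, adjusted p = 1.06e-11). CCOAMT, a relative of CCoAOMT1, reached 1.82 ± 0.74 CPM at 3D (3.41 ± 0.79, adjusted p = 2.79e-04), a level far under that of CCoAOMT1. CYP84A4, the closest relative of F5H1, fell from 19.3 ± 4.5 to 1.07 ± 0.12 CPM at 3D (-4.17 ± 0.27, adjusted p = 3.46e-19).

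Of 10 tested genes of competing phenolic branches (12 listed), 5 were higher and 2 lower at 3D, with a median log2 change of 1.34. ASFT, which feruloylates suberin precursors, went from 0.403 ± 0.099 CPM at 0h to 183 ± 36 at 1D and 608 ± 36 at 3D. FACT, which makes alkyl caffeates, had 0 counts at 0h and 21.3 ± 6.0 CPM at 3D, at least 414-fold higher than a floor of 3 counts per library. SNG1, which makes sinapoylmalate, fell from 104 ± 24 to 11.9 ± 2.3 CPM at 3D (-3.13 ± 0.20, adjusted p = 1.56e-19), and REF1, which oxidises the aldehydes to acids, fell by 1.70 at 2h from 178 ± 20 to 54.7 ± 4.4 CPM.

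Of 7 genes of monolignol glucosides and export, 1 was higher at 2h, 3 at 1D and 5 at 3D, with a median log2 change at 3D of 4.04 as fitted and 3.60 with 3 genes at the floor at 0h set to their bound. The glucosyltransferase UGT72E2 had 0 counts at 0h and 11.6 ± 0.73 CPM at 3D, at least 225-fold above the floor, and the glucosidase BGLU46 went from 0.897 ± 0.24 to 13.4 ± 4.0 CPM at 1D. Because low values stood about 2.62 counts apart, 1 fragment may be worth that many counts, and both bounds may be too high by that factor. Of 9 laccases, peroxidases and helpers of polymerisation, 4, 5 and 7 were higher at 2h, 1D and 3D, with a median at 3D of 1.90, or 1.68 with 1 gene at its bound. The peroxidase PRX52 went from 0.158 ± 0.27 CPM to 13.7 ± 6.3 at 2h and 210 ± 27 at 1D. Of 14 tested regulators (15 listed), 5 were higher and 2 lower at 2h, and 7 higher at 3D, with a median at 3D of 1.77, or 1.00 with 2 genes at their bound. MYB15, known to activate defence lignin genes, stood at 134 ± 22 CPM at 2h and 4.82 ± 0.92 at 3D after 1.16 ± 1.1 at 0h, while MYB63, an activator of lignin genes that binds AC elements, stood at 1.06 ± 0.094 at 2h and 24.2 ± 2.6 at 3D after 0.137 ± 0.061. MED5b, a Mediator subunit that holds back the pathway, fell by 1.13 at 2h from 44.5 ± 3.3 to 20.3 ± 0.68 CPM.

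Xylem markers stand for the leaf cells that lignify in development. The summed level of the 7 markers in wild type was 12.2 to 22.4 CPM at 0h, 25.2 to 30.6 at 2h, 86.3 to 112 at 1D, 66.2 to 86.6 at 2D, 44.6 to 53.3 at 3D and 15.4 to 20.4 at 5D. It was highest at 1D. It was also above its 0h range at 12h (40.5 to 46.6 CPM) and 18h (42.5 to 67.6). At 2D and 3D it was above that range but lower than at 1D by group mean. It was within the 0h range at 5D. Guard cell markers (3 genes) summed to 124 to 135 CPM at 0h, 343 to 370 at 12h, their highest, and 67.6 to 78.3 at 3D. Epidermis markers (3 genes) summed to 182 to 202 CPM at 0h, 324 to 345 at 2h, their highest, and 129 to 138 at 3D. Leaf mesophyll markers summed to 3571 to 5950 CPM at 0h and 2046 to 2222 at 3D. The part of these cell types in the members' changes was not tested.

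As a description over the 25 group means of log2 CPM, which share libraries and controls, the members most alike were CSE and CCoAOMT1 (Pearson r = 0.919), CCR2 and CAD5 (0.872), and CSE and COMT1 (0.837), and the least alike were CAD4 and CAD5 (-0.272). Outside the branch, the gene most like CSE was ABCG29 (0.938), a transporter of p-coumaryl alcohol. The gene most like CCR2 was GPAT7 (0.930), an acyltransferase, and the one most like HCT was VAP27-2 (0.929). For CCR1 it was AtCDC48B (0.922), for COMT1 ARPN (0.917), and for CAD5 AT4G15610 (0.968). The remaining ones were AT5G07475 for CCoAOMT1 (0.947), AT1G65020 for C3H1 (0.878), AT5G65990 for CAD4 (0.873) and AT3G02710 for F5H1 (0.850).

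The positions of the gene models on TAIR10.1 are as follows. HCT lies on the minus strand of chromosome 5 from 19836299 to 19838235 and COMT1 on the plus strand of the same chromosome from 21981902 to 21984399. CCoAOMT1 (16310409 to 16312308, plus), CAD5 (16386631 to 16388940, minus) and F5H1 (17137313 to 17139777, minus) lie on chromosome 4. CCR1 (5478603 to 5482180), CSE (19651172 to 19652825) and CCR2 (30370474 to 30372799), all on the plus strand, lie on chromosome 1. C3H1 lies on the minus strand of chromosome 2 from 17058053 to 17060652, and CAD4 on the plus strand of chromosome 3 from 6744377 to 6747238.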

How the data were processed

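Estimated counts per gene, a single table of 75 columns, were deposited by the authors; values are whole numbers and not scaled. Per the submitters' processing notes, Trimmomatic 0.39, HISAT2 2.2.1, StringTie 1.3.4 and edgeR 3.19 were used with build TAIR10. Per the labels' protocols, RNA came from a plant column kit and stranded mRNA libraries. Column names gave each library its group, and 0 columns were left unmatched.

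Counts were TMM-scaled and tested with edgeR 4.0.16 (glmQLFit, robust, and glmQLFTest) in R 4.3.3, in 1 fit of all 75 libraries with 1 coefficient per group, after filterByExpr (minimum count 10, minimum total 15). This left 23475 genes, over which p-values were Benjamini-Hochberg adjusted within each of 61 contrasts. A call needed an adjusted p under 0.05 and an absolute log2 fold change of at least 1. Fold changes used a prior count of 0.125, SE is the fold change divided by the root of F, and levels are mean ± SD over 3 libraries. Interactions are differences of changes. A group is at the floor when no library has more than 3 counts. PCR copies carried no molecular identifiers, so a floor covers counting error only. Replicate pairs correlated at 0.972 to 0.988, and the chi-square of replicate pairs per degree of freedom ran from 10.9 to 151, so that no pair was alike within sampling noise.

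The members and all gene lists were chosen with earlier results of these data known. Named genes are the 10 members, the label and clock genes, the gene most like each member, and the called list genes with the largest rise and fall in wild type at 2h, 1D and 3D with a mean of at least 50 counts. Sequences and neighbours came from RefSeq TAIR10.1, in which 32548 gene IDs were found, and transcript identity from BLAST 2.17.0 (e-value 1e-10). Alternatives were RLE factors, DESeq2 1.42.0, no filter, only the groups compared, counts divided by the spacing of low values, a replicate block and leaving out each library, the last with the dispersion trend of the full fit. A fit without the M libraries was added after the data were seen. The scripts were tested on simulated data.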

Additional observations from a re-analysis of the deposited data

Results flagged for a closer look

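Changes from 0h that differed between a label and wild type, by the interaction term of edgeR's quasi-likelihood fit, are given here in log2 units. All use the same 0h libraries, so they are not independent of each other or of the differences at 0h. Under rbohE the rise of CCR2 was larger by 2.92 (2h), 2.95 (4h), 2.78 (1D), 2.94 (3D) and 2.79 (5D). These CCR2 values rest on few counts at 0h, where the rbohE and wild type groups overlapped in CPM. The rise of CAD5 was larger by 1.81, 1.99, 1.62, 2.11 and 1.74 over the same times. That of CCR1 was larger by 1.16 (2h), 1.20 (4h), 1.06 (1D) and 1.34 (3D), of which the 1D value was 0.96 to 0.98 without wild type 0h replicate 1 or 2 or rbohE 0h replicate 2. The CCR2 value at 2h had an adjusted p of 0.0544 with only the groups compared. COMT1 differed by 1.40 at 2h, 1.52 at 4h and 1.26 at 3D, and F5H1 by 1.29 at 4h and 1.16 at 3D. Under gpat4 gpat8 CCR2 differed by -2.14 (2h), -1.90 (4h), -1.50 (1D), -1.35 (2D) and -1.64 (3D). The 2D value was -0.86 (adjusted p = 0.0772) without gpat4 gpat8 0h replicate 3 and -0.91 without wild type 0h replicate 2. In the same line CAD4 differed by 1.73 at 4h and CAD5 by 1.05 at 12h.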

How the results depend on the processing

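No called value changed direction under any alternative run. Counts of called member and time pairs that moved by over 1.5 times were those of gpat4 gpat8 against wild type, from 2 to 1 with only the groups compared, and those of the gpat4 gpat8 interactions, from 7 to 1 with only the groups compared. The fit leaving the M libraries out held 4 of 7 times against wild type and not 0h. Its count of 1 there leaves out CCR2 at 0h, which it could not test. In that fit 459 values kept their call or lack of one, and 1 value not called in either fit changed sign. Leaving out 1 library at a time gave 45 to 52 calls against wild type 0h, 29 to 31 and 31 to 33 against own 0h under gpat4 gpat8 and rbohE, 1 to 3 and 4 to 5 against wild type, 6 to 8 and 18 to 21 for their interactions, 11 to 13 for 3D against 2h, 0 to 2 for its interactions and 8 to 9 for wild type steps. Without length scaling the CCR2 share at 4h was 23.4% and the CAD4 share 50.5% at 0h and 2.38% at 2h, all in wild type. RLE size factors shifted the median of all genes by over 0.1 in 2 contrasts. Same-numbered replicates did not deviate together (mean correlation 0.0087 against -0.0043 for other numbers), and a replicate block left the counts at 47, 30, 32, 2, 5, 7, 19, 12, 0 and 9. CCR2 at 0h, with 3 to 226 counts a library, is the value that depth limits most.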
